A study of Sus scrofa with 8 samples.

Results

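The genes described here are 10 genes of the Hippo pathway, chosen by name among the 30550 genes of the deposited expression table. They are NF2, SAV1, LATS1, LATS2, YAP1, WWTR1, TEAD1, TEAD3, TEAD4 and the target gene CYR61, which is also called CCN1. All 10 were found once in the table under these names, and all 10 passed the filter on low values. The samples came from the hearts of pigs (Sus scrofa): 4 libraries from animals with 1 PKP2 copy knocked out (PKP2_het, heterozygous knockout) and 4 from wild-type animals (WT). PKP2 encodes plakophilin 2, a plaque protein of the desmosomes that hold heart muscle cells together, and the series describes the animals as an arrhythmogenic cardiomyopathy model. The extraction protocol describes right ventricular tissue, whereas a cell type label reads cardiomyocytes. Endothelial and fibroblast markers were present in every library, as given below, and which of the descriptions holds was not tested. The sources used here do not give how the allele was made, nor the age, sex or litter of the pigs. No label states that the libraries came from separate animals, so p-values measure only the spread between these libraries.

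The Hippo pathway is a kinase cascade that restrains growth-promoting transcription. Merlin, encoded by NF2, and other membrane proteins bring the kinases MST1 and MST2 (genes STK4 and STK3) with their scaffold SAV1 to the kinases LATS1 and LATS2. LATS kinases phosphorylate the coactivators YAP (YAP1) and TAZ (WWTR1) and so hold them in the cytoplasm. Coactivators that reach the nucleus bind DNA through the TEAD factors and switch on genes such as CYR61, CTGF and ANKRD1. This control acts mostly on the proteins, by phosphorylation and location, which a transcript table does not measure. In heart muscle several of these proteins are found at the intercalated disc, where desmosomes also lie, and the pathway is best known there for limiting cardiomyocyte proliferation.

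Libraries held between 23637697 and 31313628 fragments assigned to genes, and the 10 genes had between 172 (TEAD4) and 2729 (CYR61) fragments per library. Levels are in FPKM, fragment counts divided by gene length and a library factor, as the authors deposited them. PKP2 itself averaged 39.2 ± 9.99 FPKM in PKP2_het against 62.2 ± 8.17 in WT (SD, n = 4), without overlap between the groups (two-sided exact permutation p = 0.0286, the smallest that 70 relabellings allow). PKP2_het replicate 3 stood apart: 52.1% of its fragments were mitochondrial, against 21.1% to 37.6% in the other 7 libraries, and it was the lowest of the 8 libraries for 36.3% of all tested genes. The value without that library is given beside a result where it turns the sign or moves by over 1.5 times. For all 10 genes that value is in the plot of differences. It is not given for the shares of TEAD2, TEAD3 and TEAD4. The ventricular myosin light chain MYL2 was at 5944 to 10353 FPKM in every library. MYL7, its atrial counterpart, was at 1026 FPKM in WT replicate 3 and 243 FPKM in PKP2_het replicate 1, against 2.30 to 27.2 FPKM in the other 6. Other atrial markers split the libraries differently. NPPA was at 373, 87.9, 16.1 and 6.34 FPKM in PKP2_het replicates 1 to 4. In WT replicates 1 to 4 NPPA was at 0.0517, 1.48, 132 and 0.113 FPKM. MYL4, under the filter, was at 29.1 and 5.30 FPKM in PKP2_het replicates 1 and 2 and 6.49 FPKM in WT replicate 3.

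None of the 10 genes passed the test between PKP2_het and WT libraries. With limma and Benjamini-Hochberg adjustment, 0 of 10 passed an adjusted p of 0.05, against 1.86% of the 10757 genes tested, and 0 of 10 had an unadjusted p under 0.05, against 12.8%. Their adjusted p-values ran from 0.471 to 0.924. For all 10 genes the ranges of the groups overlapped. Among all tested genes, 9.19% had groups that did not (4.86% higher and 4.33% lower in PKP2_het). With 10 genes, a count of 0 is too coarse to set apart from these shares. Log2 fold changes were negative for 6 and positive for 4, with a median of -0.12, beside -0.02 for all tested genes. Without PKP2_het replicate 3, again 0 of 10 were called, against 2.92% of tested genes. In that comparison 4 were negative and 6 positive, with a median of 0.07 beside 0.01 for all tested genes. A limma voom fit on recovered fragments also called 0 of 10.

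**Figure D1:**
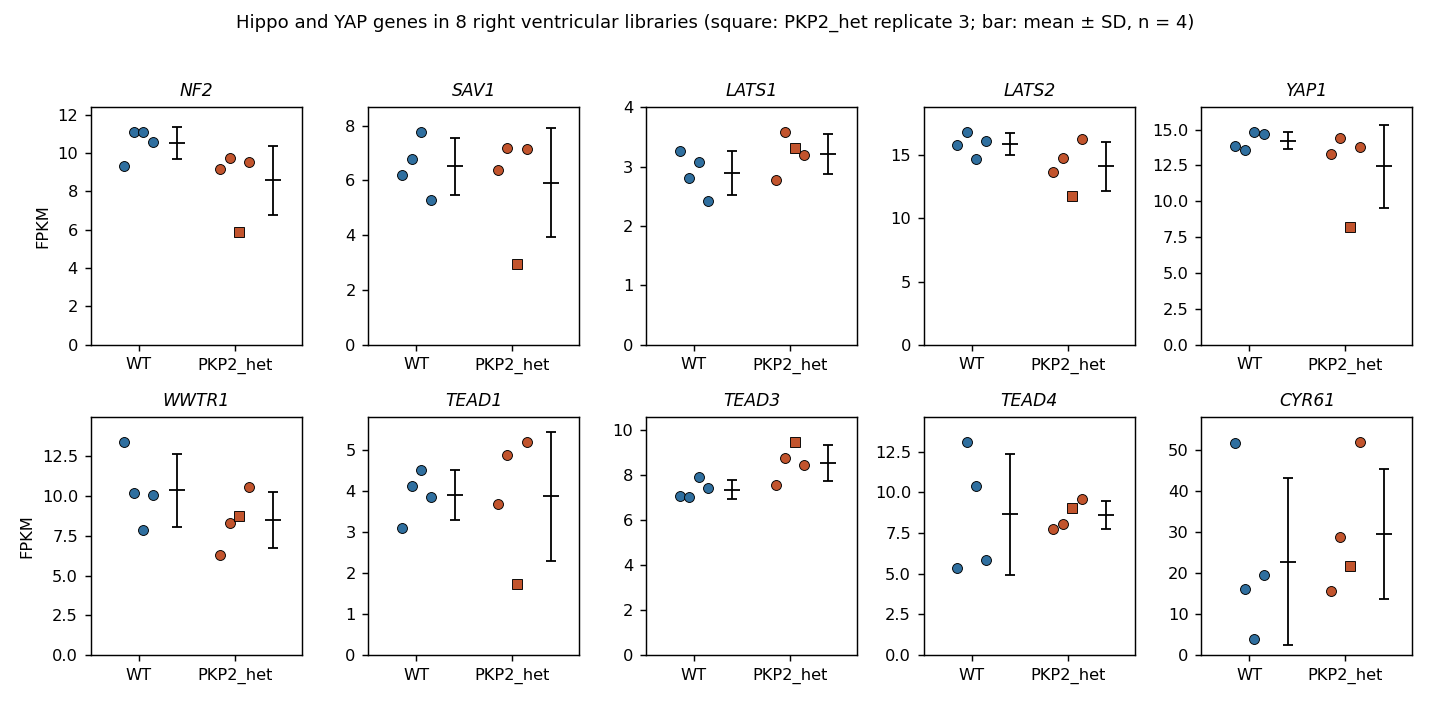
FPKM (vertical axes, each from 0) of the 10 Hippo and YAP genes in 4 WT and 4 PKP2_het libraries, with the mean and SD of each group as a bar. The groups overlap for every gene, and the square, PKP2_het replicate 3, lies lowest for NF2, SAV1, LATS2, YAP1 and TEAD1.

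Per kilobase, the 10 genes ranked from CYR61 to LATS1. Means over all 8 libraries (± SD) were 26.1 ± 17.3 FPKM for CYR61, 15.0 ± 1.67 for LATS2, 13.3 ± 2.15 for YAP1, 9.54 ± 1.67 for NF2 and 9.42 ± 2.13 for WWTR1. They were 8.64 ± 2.50 FPKM for TEAD4, 7.96 ± 0.870 for TEAD3, 6.22 ± 1.51 for SAV1, 3.89 ± 1.10 for TEAD1 and 3.05 ± 0.371 for LATS1. YAP1 was above NF2, TEAD3 above SAV1 and SAV1 above TEAD1 in 8 of 8 libraries. NF2 against WWTR1, WWTR1 against TEAD4 and TEAD4 against TEAD3 did not hold an order, with the first above the second in 5, 4 and 4 of 8 libraries. The gene models of TEAD3 and TEAD4 are 1305 and 1473 bases long, against 11289 bases for TEAD1, so levels per length compare unlike models.

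NF2 encodes merlin, the membrane-linked protein that activates LATS kinases upstream, and lies on chromosome 14 (46653869 to 46726421, Sscrofa11.1). It was at 9.32, 11.1, 11.1 and 10.6 FPKM in WT replicates 1 to 4, and at 9.14, 9.71, 5.85 and 9.55 FPKM in PKP2_het replicates 1 to 4. PKP2_het replicate 3 was far below the rest, and PKP2_het replicates 2 and 4 lay above the lowest WT library. It averaged 10.5 ± 0.827 FPKM in WT against 8.56 ± 1.82 in PKP2_het (SD, n = 4). The log2 fold change was -0.29 ± 0.15 (SE), with a 95% interval of -0.63 to 0.06 (limma adjusted p = 0.483). Without PKP2_het replicate 3 it was -0.13 ± 0.09.

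SAV1 is the scaffold that joins the MST kinases to LATS, on chromosome 1 (180404871 to 180434458). WT libraries were at 6.21, 6.80, 7.76 and 5.27 FPKM, and PKP2_het libraries at 6.38, 7.19, 2.97 and 7.16 FPKM. Apart from PKP2_het replicate 3, which held 42.9% of the mean of its group's other libraries, the PKP2_het values sat inside the WT range. The log2 fold change was -0.16 (95% interval -0.68 to 0.35), and 0.08 without that library.

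The LATS kinases differed in level from each other more than between groups. LATS2 (chromosome 11, 1225523 to 1265970), which is itself switched on by YAP, was at 15.8, 16.8, 14.7 and 16.1 FPKM in WT and at 13.6, 14.8, 11.8 and 16.3 FPKM in PKP2_het. LATS1 (chromosome 1, 16274955 to 16320980) was at 3.26, 2.80, 3.07 and 2.41 FPKM in WT and at 2.77, 3.58, 3.31 and 3.19 FPKM in PKP2_het. For LATS2 the highest PKP2_het library exceeded 3 of 4 WT libraries, and for LATS1 the groups were interleaved. The log2 fold changes were -0.17 ± 0.12 for LATS2 and 0.12 ± 0.11 for LATS1 (SE), with limma adjusted p-values of 0.600 and 0.681. They were -0.09 and 0.11 without PKP2_het replicate 3, the lowest library for LATS2. LATS2 made up 81.3 ± 2.58% of the summed LATS FPKM in PKP2_het and 84.6 ± 2.11% in WT (SD, n = 4; two-sided exact permutation p = 0.171, and 0.514 when adjusted over the 3 shares tested). The difference was -3.26 percentage points, and -2.16 points without PKP2_het replicate 3.

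YAP1, the coactivator gene on chromosome 9 (32811629 to 32924926), was among the steadiest transcripts in WT libraries. Its WT values were 13.9, 13.6, 14.8 and 14.7 FPKM, and 9.03% of tested genes varied less among WT libraries on the log2 scale. PKP2_het values were 13.3, 14.4, 8.18 and 13.8 FPKM. Only PKP2_het replicates 1 and 3 were below the lowest WT library, replicate 1 by a small margin. The log2 fold change was -0.21 ± 0.16 (95% interval -0.58 to 0.16, limma adjusted p = 0.639). Without PKP2_het replicate 3 it was -0.04 ± 0.08, and the PKP2_het mean was 13.8 FPKM beside 14.2 FPKM in WT.

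WWTR1, which encodes TAZ, varied from library to library in both groups. The gene lies on chromosome 13 (89742980 to 89889547). WT libraries were at 13.4, 10.2, 7.84 and 10.1 FPKM and PKP2_het libraries at 6.30, 8.32, 8.76 and 10.6 FPKM. The highest value was in WT replicate 1 and the lowest in PKP2_het replicate 1, with the other 6 libraries between and mixed. PKP2_het replicate 1 and WT replicate 3, the libraries with the high MYL7, were each the lowest of their group. The part of that MYL7 difference in the WWTR1 values was not tested. The log2 fold change was -0.26 ± 0.18 (95% interval -0.66 to 0.14, limma adjusted p = 0.591), and -0.28 ± 0.19 without PKP2_het replicate 3. WWTR1 made up 40.95 ± 8.55% of the summed FPKM of both coactivators in PKP2_het and 41.8 ± 5.98% in WT (SD, n = 4; two-sided exact permutation p = 0.943, also after adjustment over the 3 shares). The sign of this difference depended on single libraries: without WT replicate 1 the share was 1.57 percentage points higher in PKP2_het, and without PKP2_het replicate 1 it was 2.08 points higher. The difference was -4.45 points without PKP2_het replicate 3.

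WWTR1 and endothelial marker levels were correlated across libraries. The summed FPKM of PECAM1, CDH5, VWF, KDR, TIE1 and CLDN5 was 431, 339, 213 and 306 in WT replicates 1 to 4 and 179, 218, 354 and 279 in PKP2_het replicates 1 to 4. WT replicate 1 was the highest and PKP2_het replicate 1 the lowest for both quantities. Within WT, replicate 3 was the lowest for both, so the libraries with the high MYL7 were the lowest of their groups. The part of that MYL7 difference in the relation was not tested. This relation was chosen after the values were seen, so its p-values are descriptive and do not measure chance. Pearson's r on the log2 scale was 0.88 over 8 libraries (exact permutation p = 0.00389, Benjamini-Hochberg 0.00973 over 5 relations computed). Spearman's rho was 0.79 (exact permutation p = 0.0279, adjusted 0.0698). Leaving out the 2 libraries farthest from the median marker sum gave r = 0.63, and leaving out PKP2_het replicate 3 gave r = 0.96. All 6 endothelial markers had a negative log2 fold change and 0 of 6 were called by limma, with PECAM1 at -0.29 and VWF at -0.24. These were -0.48 and -0.40 without PKP2_het replicate 3. TIE1 was at -0.03, and -0.24 without that library, and its sign turned in 4 of 18 alternative settings. CLDN5, named after its values were seen, was at -0.55, and its limma adjusted p ran from 0.0433 with array weights to 0.691 over 18 alternative settings. In bulk RNA, the number of cells of a type and the RNA per cell cannot be told apart.

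TEAD factors bind DNA and carry the coactivators to their target genes. TEAD1 (chromosome 2, 46396490 to 46670619) was at 3.09, 4.13, 4.53 and 3.86 FPKM in WT and at 3.68, 4.88, 1.73 and 5.19 FPKM in PKP2_het. PKP2_het replicate 3 was the lowest library and replicates 2 and 4 the highest. The TEAD1 log2 fold change of -0.07 ± 0.24 turned to 0.19 ± 0.13 without PKP2_het replicate 3 (limma adjusted p = 0.924 and 0.537).

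TEAD3 (chromosome 7, 31337890 to 31351452) had the smallest p of the 10 genes. It was at 7.06, 7.03, 7.93 and 7.42 FPKM in WT and at 7.55, 8.76, 9.47 and 8.45 FPKM in PKP2_het. Of the PKP2_het libraries 3 lay above every WT library, and replicate 1 did not. Its log2 fold change was 0.19 ± 0.10 (95% interval -0.03 to 0.41, limma adjusted p = 0.471), and 0.15 ± 0.08 without PKP2_het replicate 3. Rescaling the libraries to equal FPKM sums moved the median of all tested genes from -0.02 to -0.23, and TEAD3 went to -0.05, above that median as before.

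TEAD4 (chromosome 5, 67130392 to 67167579) had a split WT group. WT replicates 1 and 4 were at 5.35 and 5.82 FPKM and WT replicates 2 and 3 at 13.1 and 10.4 FPKM, while PKP2_het libraries stayed between 7.72 and 9.61 FPKM. All PKP2_het values fell in the gap between the lower and the higher WT libraries. The WT spread on the log2 scale exceeded that of 97.8% of tested genes. The group means were nearly equal, 8.67 ± 3.72 FPKM in WT against 8.62 ± 0.871 in PKP2_het (SD, n = 4; limma adjusted p = 0.922).

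The fourth family member, TEAD2, held the largest share of the TEAD transcripts per kilobase. These shares compare unlike gene models, 2527 bases for TEAD2 against 11289 for TEAD1, 1305 for TEAD3 and 1473 for TEAD4. In fragments per library, TEAD1 ranged from 466 to 1653 and TEAD2 from 936 to 1410. It made up 47.55 ± 6.08% of the summed TEAD FPKM in WT and 45.8 ± 3.69% in PKP2_het (SD, n = 4). TEAD3 held 19.7 ± 2.01% and 22.1 ± 3.04%, and TEAD4 22.4 ± 7.495% and 22.3 ± 2.63%, in the same order. The highest TEAD3 share, 26.5%, was in PKP2_het replicate 3. TEAD2, TEAD3 and TEAD4 shares without that library were not computed. TEAD1 contributed 10.3 ± 1.06% in WT and 9.82 ± 3.61% in PKP2_het (two-sided exact permutation p = 0.857, adjusted 0.943), with 4.83% in PKP2_het replicate 3. Without that library the TEAD1 share was 1.14 percentage points higher in PKP2_het. TEAD2 itself ranged from 17.2 to 18.6 FPKM over WT libraries and from 15.5 to 19.7 FPKM over PKP2_het libraries.

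**Figure D2:**
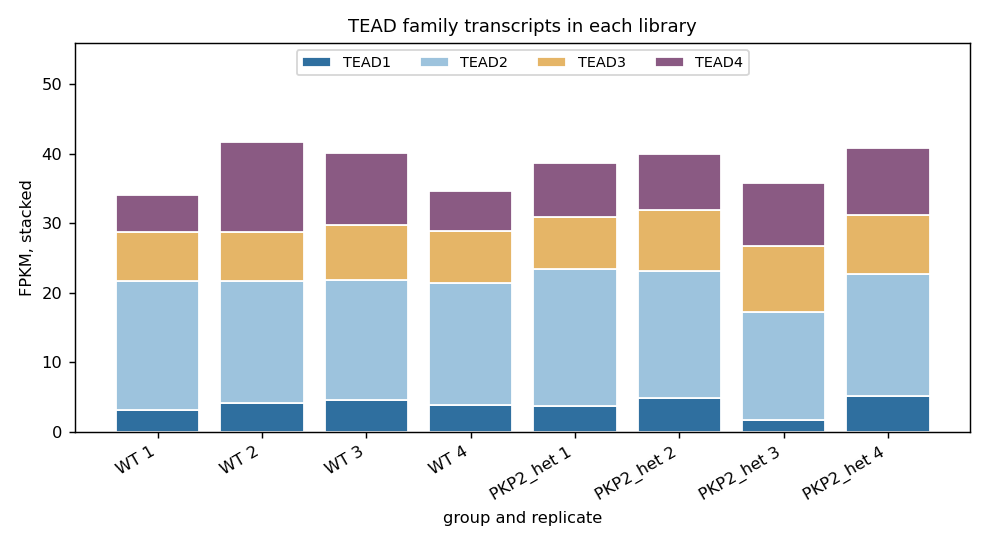
Stacked FPKM of TEAD1, TEAD2, TEAD3 and TEAD4 (vertical axis, from 0) in each of the 8 libraries (horizontal axis). TEAD2 is the largest block in every library, TEAD4 is widest in WT replicates 2 and 3, and TEAD1 is thinnest in PKP2_het replicate 3.

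CYR61, a secreted matrix-associated protein that serves as a readout of YAP and TAZ activity, was the most variable of the 10 genes. It lies on chromosome 4 (130392404 to 130395179). WT libraries were at 51.7, 16.1, 3.78 and 19.4 FPKM and PKP2_het libraries at 15.7, 28.7, 21.8 and 51.8 FPKM. The highest WT and the highest PKP2_het library were at almost the same level. The lowest was WT replicate 3, and the lowest of PKP2_het was replicate 1, both libraries with the high MYL7. The part of that MYL7 difference in the CYR61 values was not tested. Within WT the highest library was 13.7 times the lowest, and the WT spread on the log2 scale exceeded that of 99.9% of tested genes. It averaged 22.7 ± 20.4 FPKM in WT against 29.5 ± 15.8 in PKP2_het (SD, n = 4). The log2 fold change was 0.69 ± 0.63 (SE), with a 95% interval of -0.73 to 2.11 (limma adjusted p = 0.685). Single libraries moved it from 0.07 without WT replicate 3 to 1.23 without WT replicate 1, and it was 0.79 without PKP2_het replicate 3.

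**Figure D3:**
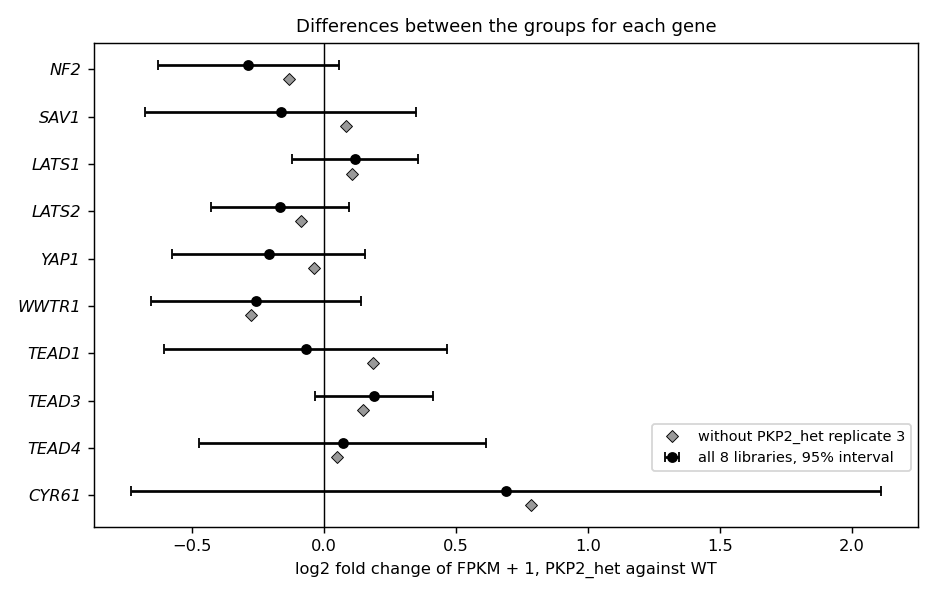
Log2 fold change of FPKM + 1 (horizontal axis), PKP2_het against WT, for each of the 10 genes with its 95% interval from limma, and the value without PKP2_het replicate 3 as a diamond. Every interval includes 0, the CYR61 interval is the widest, and TEAD1 and SAV1 change sign without that library.

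Among 22 genes of a YAP and TAZ target signature, 16 passed the filter and 0 were called in limma. Of these 16 genes 6 had positive and 10 negative log2 fold changes, with a median of -0.07, and -0.05 without PKP2_het replicate 3. An unadjusted p under 0.05 was found for 2 of the 16, in opposite directions, a share near the 12.8% of all tested genes. CTGF (CCN2), a matricellular growth factor related to CYR61, was at 31.3, 12.3, 8.18 and 14.6 FPKM in WT and at 24.4, 23.4, 26.4 and 40.5 FPKM in PKP2_het. Apart from WT replicate 1, every WT library was below every PKP2_het library. Its log2 fold change was 0.88 ± 0.34 (limma adjusted p = 0.310), and its adjusted p ran from 0.0520 to 0.732 over 18 alternative settings.

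ANKRD1, a titin-linked ankyrin repeat protein of heart muscle that responds to stretch, was at 374, 341, 172 and 444 FPKM in WT and at 80.6, 215, 123 and 262 FPKM in PKP2_het. WT replicate 3 was the one WT library inside the PKP2_het range. That library and PKP2_het replicate 1, both with the high MYL7, were the lowest of their groups. The part of that MYL7 difference in the ANKRD1 values was not tested. The ANKRD1 log2 fold change was -1.03 ± 0.40 (limma adjusted p = 0.307). Its limma adjusted p ran from 0.180 without WT replicate 3 to 0.610 over 18 alternative settings. AMOTL2, an angiomotin-like protein that is both a target and a restraint of YAP, averaged 23.8 ± 1.87 FPKM in WT against 23.9 ± 3.98 in PKP2_het (SD, n = 4). Its log2 fold change was -0.01, and 0.03 without PKP2_het replicate 3. The target genes thus differed in sign: CTGF and CYR61 had positive, ANKRD1 negative and AMOTL2 near-zero log2 fold changes, and none was called. AMOTL2 was named after its values were seen.

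**Figure D4:**
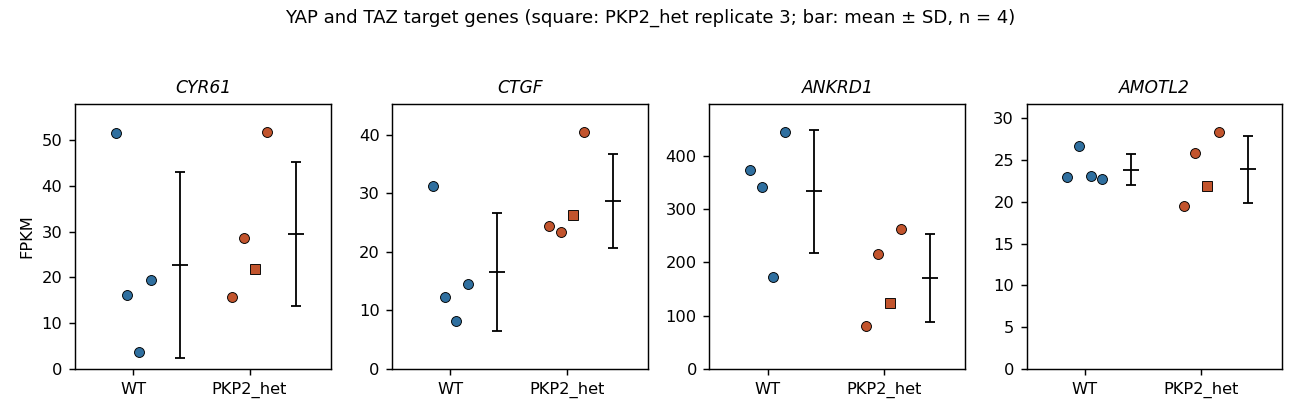
FPKM (vertical axes, each from 0) of the target genes CYR61, CTGF, ANKRD1 and AMOTL2 in 4 WT and 4 PKP2_het libraries, with mean and SD. CTGF lies higher and ANKRD1 lower in most PKP2_het libraries, with 1 WT library of each inside the PKP2_het range, and AMOTL2 is level.

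CYR61 and CTGF varied together over the libraries. Pearson's r between their log2 levels was 0.89 over 8 libraries (exact permutation p = 0.00231, Benjamini-Hochberg 0.00973 over the 5 relations). All 5 relations were chosen after the values were seen, so these p-values are descriptive and do not measure chance. Spearman's rho was 0.81 (exact permutation p = 0.0218, adjusted 0.0698). It was r = 0.73 when the 2 libraries farthest from the median CTGF level were left out. The other relations of CYR61 had smaller r and rho. Pearson's r with CYR61 was -0.10 for YAP1 (exact permutation p = 0.691), 0.61 for WWTR1 (0.102) and 0.34 for ANKRD1 (0.418). Spearman's rho was -0.12, 0.71 and 0.38 in the same order, with exact permutation p = 0.793, 0.0576 and 0.360. Adjusted over the 5 relations, the p-values of r were 0.691, 0.170 and 0.523, and those of rho 0.793, 0.0960 and 0.450. Without the 2 libraries farthest from the median YAP1, WWTR1 or ANKRD1 level, r was 0.12, 0.62 and 0.48. The r with YAP1 was -0.40 without PKP2_het replicate 3.

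The genes whose log2 pattern over the 8 libraries was most like that of CYR61 were MYOT, NID2, ABRA, PPP1R10 and PHLDB2, with Pearson's r between 0.92 and 0.94. MYOT encodes myotilin of the Z-disc, NID2 the basement membrane protein nidogen 2 and ABRA an actin-binding activator of serum response factor signalling. ABRA ranged from 21.1 to 120.2 FPKM and MYOT from 27.75 to 75.6 FPKM. For YAP1 the most similar were PRKAR1A, a regulatory subunit of protein kinase A, CPD, SLC4A1AP, ARPP19 and SLC25A44, with r of 0.99 for each. Without PKP2_het replicate 3, r for these 5 genes was 0.66 to 0.88, whereas for the genes most like CYR61 it was 0.92 to 0.94. These are the largest values among all tested genes with a symbol, so they describe the pattern and carry no test.

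The wider pathway held no called gene either. Of 67 other genes in the pathway lists, all were in the table and 53 passed the filter. Of these 0 were called by limma in either direction (background 1.15% higher and 0.707% lower), and 0 by limma voom on fragments, while 6 had an unadjusted limma p under 0.05, no larger a share than the 12.8% of all tested genes. Log2 fold changes were negative for 37 and positive for 16, with a median of -0.07. Without PKP2_het replicate 3 they were negative for 30 and positive for 23, with a median of -0.05. That library was the lowest of 8 for 27 of the 53, and for 5 of the 10 genes above. Of the 53, DCHS1 and MOB1A had groups that did not overlap, and no others did, a smaller share than the 9.19% of all tested genes. The other 14 pathway genes were under the filter, 10 of them above 0 FPKM in all 8 libraries. Of these 10, the groups did not overlap for 1, NT5E, beside 9.18% of the 4988 such genes in the table.

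The core kinase list had 6 tested genes with a median log2 fold change of -0.17, and -0.06 without PKP2_het replicate 3, which was the lowest library for 4 of them. MOB1A, the adaptor that activates LATS, was at 9.55, 7.86, 7.37 and 7.83 FPKM in WT and at 6.30, 7.14, 6.33 and 7.07 FPKM in PKP2_het. All PKP2_het libraries lay below all WT libraries, and the log2 fold change was -0.24 ± 0.11 (limma adjusted p = 0.371). Its paralog MOB1B had a log2 fold change of -0.37 ± 0.19, and -0.17 without PKP2_het replicate 3. STK4, which encodes MST1, was under the filter, at means of 0.703 FPKM (WT) and 0.644 FPKM (PKP2_het).

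Of 18 upstream regulators 16 were tested, with a median of -0.06. DCHS1, a giant cadherin that signals to the pathway, was at 4.66, 4.47, 3.61 and 4.10 FPKM in WT and at 1.86, 3.26, 3.50 and 3.55 FPKM in PKP2_het. The groups were separated by a narrow margin, and the log2 fold change was -0.39 ± 0.16 (limma adjusted p = 0.333). FRMD6, a membrane scaffold, had a log2 fold change of -0.25 (limma adjusted p = 0.481). FAT4, the cadherin partner of DCHS1, was at -0.16.

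The STRIPAK phosphatase complex, which counters the MST kinases, had 11 tested genes with a median of -0.02, and 0.03 without PKP2_het replicate 3. Its smallest p belonged to the scaffold STRN3, with a log2 fold change of -0.27 ± 0.14 (limma adjusted p = 0.463), and -0.15 without PKP2_het replicate 3. Among coactivators and partners 7 of 10 genes were tested, with a median of -0.00, and 0.06 without that library. VGLL4, which competes with YAP for TEAD, averaged 2.18 ± 0.148 FPKM in WT against 2.35 ± 0.680 in PKP2_het (SD, n = 4). Its log2 fold change was 0.05, and 0.19 without PKP2_het replicate 3. Its relatives VGLL1, VGLL2 and VGLL3 were under the filter.

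Of the 6 CCN genes 4 were tested. Besides CYR61 and CTGF, WISP2 (CCN5) had a log2 fold change of 0.52 ± 0.22 (limma adjusted p = 0.347) and NOV (CCN3) of -0.17 ± 0.31, or -0.41 without PKP2_het replicate 3. WISP2 was at 1.23, 1.48, 1.74 and 3.33 FPKM in WT and at 2.49, 4.44, 3.01 and 2.64 FPKM in PKP2_het, so WT replicate 4 lay within the PKP2_het range. The median of the 4 was 0.61 and 0 were called. The 6 fibroblast markers summed to 185 to 228 FPKM over WT libraries and 154 to 379 FPKM over PKP2_het libraries, and 0 of 6 were called. The part of these marker levels in the CCN values was not tested.

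The list of junctional partners, which holds genes of cell junctions and the kinase gene PRKCA, had a median of -0.19 over 8 tested genes, and -0.01 without PKP2_het replicate 3. TJP1 (ZO-1) was at 27.6, 26.3, 20.6 and 25.9 FPKM in WT and at 17.5, 21.1, 14.9 and 23.8 FPKM in PKP2_het. WT replicate 3 was inside the PKP2_het range. PRKCA, the protein kinase C alpha gene, was at 0.855 FPKM in PKP2_het replicate 3 and at 3.70 FPKM or more in the other 7 libraries. Its log2 fold change was -0.52 ± 0.29, or -0.18 ± 0.10 without that library (limma adjusted p = 0.509 and 0.409). CTNNA3, the alpha-T-catenin of heart junctions, had a log2 fold change of -0.25 with all libraries and -0.03 without PKP2_het replicate 3.

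**Figure D5:**
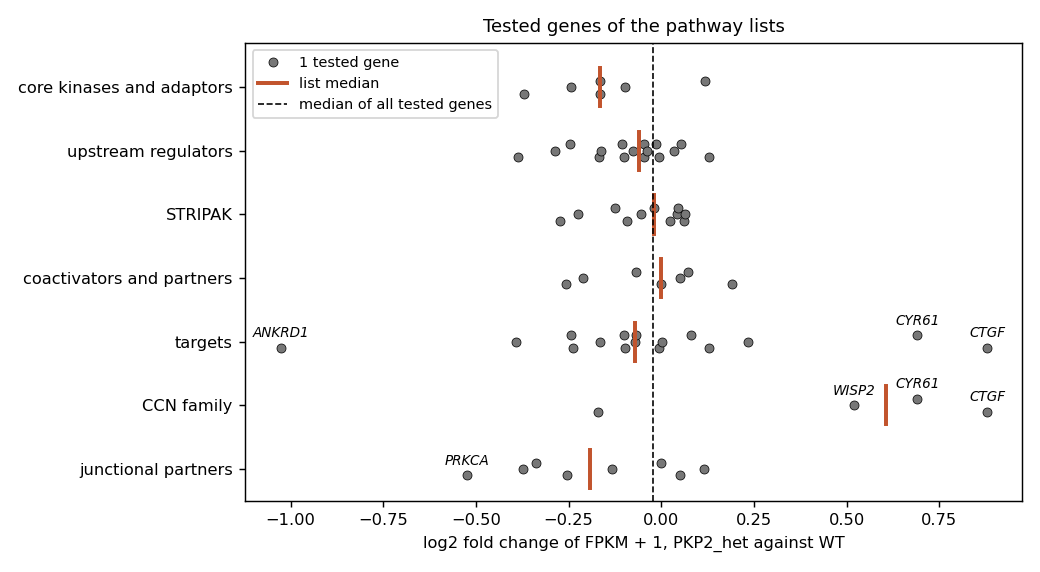
Log2 fold change of FPKM + 1 (horizontal axis), PKP2_het against WT, of each tested gene in 7 pathway lists, with the list median as a bar and the median of all tested genes as a dashed line. Some genes are in more than 1 list. ANKRD1, CYR61 and CTGF lie farthest from 0, and the CCN family median is at 0.61.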

How the data were processed

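RNA was sequenced in 8 libraries, 4 PKP2_het and 4 WT, grouped by their titles; the protocol describes right ventricular tissue and a label cardiomyocytes. Per the labels' protocols, 150 bp read pairs were aligned with HISAT2 2.0.5. The sources used here give neither the counting program nor the annotation. The authors deposited FPKM values. FPKM multiplied by gene length was divided by the smallest nonzero product of each library, which was taken as a single fragment. This gave whole fragments for 100% of values, within 0.01 fragments. Library factors recovered this way equal median-of-ratios factors, so levels are relative to the median gene. Coordinates are the table's, which equal those of RefSeq on Sscrofa11.1 for 30335 genes; 215 did not match. One pathway gene, MOB4, was matched through the table's annotation as MOBKL3.

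Genes that reached 1 FPKM in 4 or more of the 8 libraries were compared as log2(FPKM + 1) by limma 3.58.1 (R 4.3.3). The fit used a variance trend and no replicate term, and Benjamini-Hochberg adjustment ran over all 10757 genes. Fold changes include the pseudocount and understate changes of low genes. Intervals are 95%. PKP2, 3 shares of paralogs and 5 relations were tested by exact permutation (scipy 1.17.1), two-sided. The fit was tested on simulated fragments. The 10 genes and the lists were chosen with earlier results of these data known; the 5 relations were chosen after seeing the values. Genes named are PKP2, the 10 genes and up to 4 genes with the smallest p per list. Also named are the 5 most similar genes to CYR61 and YAP1, and the highest markers. TEAD2, AMOTL2, CLDN5, TIE1, NPPA and genes under the filter were named after their values were seen. No protein or promoter sequences were used here.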

Additional observations from a re-analysis of the deposited data

Results flagged for a closer look

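Among 66 groups of 4 libraries checked for a library far from the other 3 (Dixon's 95% criterion, met by chance in about 1 of 20 groups), 2 had one, both PKP2_het replicate 3. NF2 was at 5.85 FPKM there, while the rest of the group lay at 9.14 to 9.71 FPKM. PRKCA was at 0.855 FPKM there, against 3.70 to 4.14 FPKM. That library had a mitochondrial share of 52.1%; the part of this share in the low values was not tested.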

How the results depend on the processing

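In each of 18 alternative fits 0 of the 10 genes were called. Over all genes, 124 were higher and 76 lower; the counts were 52 and 34 with at least 1 FPKM in all 8 libraries, 50 and 45 with equal FPKM sums, 367 and 292 with array weights, and 75 to 195 and 40 to 119 when single libraries were left out. With a replicate block they were 66 and 39. Replicate numbers are only shared names: deviations of same-numbered libraries correlated at -0.39, 0.03, -0.23 and 0.20, and 1 of 4 PKP2_het libraries matched its own number best. Signs of uncalled log2 fold changes turned in 15 cases among the genes whose values follow, with each gene counted separately in each fit. Other named genes turned too, TEAD2 in 5 fits, AMOTL2 in 4 and TIE1 in 4. Equal sums moved the median log2 fold change of all tested genes from -0.02 to -0.23, and with that shift TEAD3 was at -0.048, TEAD4 at -0.17, LATS1 at -0.076, VGLL4 at -0.11 and ARHGEF17 at -0.0069. With array weights TEAD1 was at 0.18, TEAD4 at -0.13 and SAV1 at 0.071. With single libraries left out, TEAD1 ranged from -0.21 to 0.19 and SAV1 from -0.27 to 0.084, both highest without PKP2_het replicate 3. TEAD4 ranged from -0.10 to 0.28, negative without WT replicate 1 or 4 (-0.069), VGLL4 from -0.036 to 0.19, negative without PKP2_het replicate 2 or 4 (-0.021), and NOV from -0.41 to 0.054, positive without WT replicate 1. The cause of the turns under array weights and left-out libraries was not tested. With single libraries left out, the group difference in share ranged from -4.45 to 2.08 points for WWTR1, -4.02 to -2.16 for LATS2 and -1.49 to 1.14 for TEAD1. The PKP2 difference ranged from -26.2 to -18.2 FPKM, with exact permutation p = 0.0571, the smallest that 3 against 4 libraries allow. TEAD3 and TEAD4 had the fewest fragments, 172 to 588 per library, so counting error is largest for them.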

Other observations

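Of the pathway genes under the filter, 1 had groups that did not overlap, near the background share of 9.18%, and it was named after its values were seen. NT5E, the CD73 ectonucleotidase and a gene of the target signature, was at 0.377, 0.626, 0.560 and 0.444 FPKM in WT and at 0.711, 1.30, 0.881 and 1.25 FPKM in PKP2_het. With no filter on low values its log2 fold change was 0.43 ± 0.11 (SE) and the limma adjusted p 0.161. The other 13 genes under the filter, among them STK4, WWC1, AMOT and TGFB2, had overlapping groups.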
